A study of Homo sapiens with 2 samples.

Results

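The 9 genes described here encode the central proteins of nonsense-mediated mRNA decay (NMD). They are the UPF genes UPF1, UPF2, UPF3A and UPF3B and the SMG genes SMG1, SMG5, SMG6, SMG8 and SMG9. They were taken by name from a table of 54261 gene symbols, by a rule that uses no measured value, and the table listed all 9. All cells were RKO, an established line from a human colon carcinoma. They received either si-NC, a negative control siRNA, or si-SRSF2, a single siRNA sequence against the splicing factor SRSF2. Each group was 1 RNA-seq library of a bulk culture, in which fewer cells with a transcript and less of it per cell cannot be told apart, and no difference below had a replicate check so no test across genes was run. The si-NC library held 19931360 counts and the si-SRSF2 library 14512802.

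SRSF2 mRNA was examined first. It had 1964 counts in si-NC against 713 in si-SRSF2, and 49.9% of its control level was left after scaling. The labelled cell type was compared with marker genes. The keratin genes KRT8 and KRT18 had 547 and 632 counts in si-NC with 618 and 477 in si-SRSF2, the epithelial adhesion gene EPCAM 179 and 147, and the intestinal transcription factor gene CDX2 212 and 158. After scaling, KRT8 was past 1.5-fold higher in si-SRSF2, with a log2 ratio to si-NC of 0.62 (95% counting interval 0.47 to 0.80), and KRT18 stood at 0.051. The part of this in the results below was not tested. Other epithelial and intestinal markers were near absent, with 10 and 6 counts for the E-cadherin gene CDH1 and 1 in each library for KRT19 and for VIL1. Leukocyte and endothelial markers had 0 to 2 counts in each library, and fibroblast markers 0 to 13.

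NMD destroys mRNAs on which the ribosome stops too early, for instance upstream of an exon junction or ahead of an unusually long 3′ UTR. UPF1 is the RNA helicase at its centre, and UPF2 together with UPF3A or UPF3B links UPF1 to the exon junction complex. The kinase SMG1, held in check by SMG8 and SMG9, phosphorylates UPF1, after which SMG5 and the endonuclease SMG6 are recruited and the mRNA is degraded. The mRNAs of several of these factors are NMD substrates themselves, so their levels climb when the pathway is blocked and are used as a readout of its activity. SR proteins such as SRSF2 can raise the efficiency of NMD, and SRSF2 limits its own mRNA through an NMD-sensitive isoform.

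The 9 mRNAs did not move together after SRSF2 knockdown, and no member was 1.5-fold higher or lower. Levels are given in CPM, counts scaled to library size, after TMM adjustment, and differences as the log2 ratio of si-SRSF2 over si-NC with 0.5 CPM added to each level. The 95% Clopper-Pearson intervals of the ratios cover counting error alone and say nothing of the spread between cultures. Of the 9 members, 6 were higher and 3 lower in si-SRSF2, with a median log2 ratio of 0.045. Among the 12620 genes that averaged 1 CPM or more, which include all 9 members, 46.2% were higher and 53.8% lower, with a median of -0.025. A difference of at least 1.2-fold was found in 0 members upwards, against 14.9% of all genes, and in 1 member downwards, against 17.9%. At 1.5-fold the counts were 0 and 0 of 9, against 4.18% and 3.52% of all genes. The interval lay wholly above equality for 1 member, against 21% of all genes, and wholly below it for 2, against 26.7%. The share of members that were higher, 6 of 9, was larger than among all genes tested. At 1.2-fold and by the intervals the members' shares were smaller. Among genes averaging 5 CPM or more, as all members do, 11.2% were at least 1.2-fold higher and 16.1% lower. With 9 genes each share rests on a few genes, so nothing is read from these differences.

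**Figure D1:**
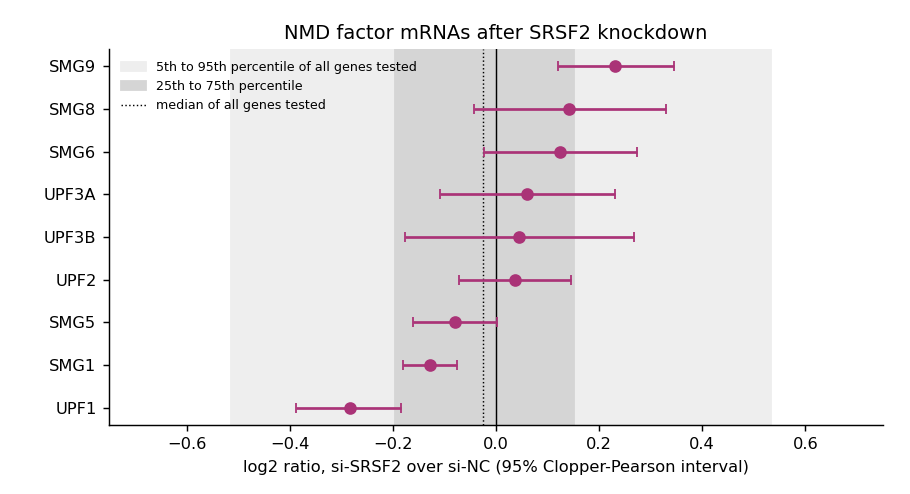
Log2 ratio of si-SRSF2 over si-NC for the 9 NMD factors, 1 point per gene with its 95% Clopper-Pearson interval, which covers counting error only; the grey bands span the middle of the 12620 genes tested and the dotted line is their median. All 9 points lie between -0.28 and 0.23, and the intervals of UPF1, SMG1 and SMG9 do not reach 0.

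Among the UPF genes, UPF1 had the value farthest from equality. UPF1 (ENSG00000005007.14) is a plus-strand gene of chromosome 19 (GRCh38, bases 18831959 to 18868230). It had 2090 counts in si-NC against 1249 in si-SRSF2, or 105 and 86.1 CPM. Its log2 ratio was -0.28 (interval -0.39 to -0.18), a level 1.22-fold lower in si-SRSF2, and 16.2% of all genes tested had a lower ratio. A linear fit of the log2 ratio on transcript length, GC content and expression over 11788 genes left UPF1 at -0.23 and upper-quartile scaling at -0.26, both short of 1.2-fold.

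The partners of UPF1 were close to equality. UPF2, the adaptor that binds UPF1, had 1610 counts in si-NC against 1203 in si-SRSF2, or 80.8 and 82.9 CPM, with a log2 ratio of 0.037 (interval -0.072 to 0.15). Its locus is on the minus strand of chromosome 10 (11920022 to 12043170). UPF3A and UPF3B are paralogues that bind UPF2 and the exon junction complex, and UPF3B is the more active of the pair in NMD. UPF3A, a plus-strand gene of chromosome 13 (114281601 to 114305817), had 667 and 507 counts, or 33.5 and 34.9 CPM, and a log2 ratio of 0.061 (-0.11 to 0.23). For UPF3B, a minus-strand gene of chromosome X (119834022 to 119852998), the counts were 391 and 294, or 19.6 and 20.3 CPM, and the log2 ratio was 0.045 (-0.18 to 0.27). All 3 intervals included equality, and that of UPF3B, the member with the fewest counts, was the widest.

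In the kinase complex, SMG1 was lower and its regulators SMG9 and SMG8 had higher values. SMG1, a minus-strand gene of chromosome 16 (18804860 to 18926408), encodes a kinase of the family of ATM and mTOR. It had 7475 counts in si-NC against 4982 in si-SRSF2, or 375 and 343 CPM, with a log2 ratio of -0.13 (interval -0.18 to -0.076). SMG9, a subunit that binds SMG1 and restrains it, is encoded on the minus strand of chromosome 19 (43727983 to 43754962). SMG9 had 1393 and 1192 counts, or 69.9 and 82.1 CPM, and the highest log2 ratio of the members, 0.23 (0.12 to 0.35), which 82.6% of all genes tested were below. SMG8, the other regulatory subunit, from the plus strand of chromosome 17 (59209400 to 59215239), had 537 and 432 counts, or 26.9 and 29.8 CPM, and a log2 ratio of 0.14 (-0.042 to 0.33). The SMG8 interval reached equality, whereas that of SMG9 did not.

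The value of SMG1 moved most of the members' in the joint fit on transcript length, GC content and expression. SMG1 has the longest canonical transcript of the members, 16062 bases, longer than that of 99.5% of coding genes tested, and the fit left it at a log2 ratio of -0.025, outside its interval. Log2 ratios declined by 0.035 for each doubling of length in that fit (coefficient -0.035). SMG9, at 5491 bases, had 0.29 after the same fit, 1.2-fold or more higher.

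The decay effectors SMG5 and SMG6 had values on opposite sides of equality. SMG5, an adaptor that binds phosphorylated UPF1, is encoded on the minus strand of chromosome 1 (156249224 to 156282825). SMG5 had 3008 counts in si-NC against 2074 in si-SRSF2, or 151 and 143 CPM, with a log2 ratio of -0.079 (interval -0.16 to 0.0023). SMG6, the endonuclease that cuts NMD substrates near the stop codon, is encoded on the minus strand of chromosome 17 (2059839 to 2303785). Its counts were 845 and 671, or 42.4 and 46.2 CPM, and the log2 ratio was 0.12 (-0.024 to 0.27). Both intervals included equality, but with upper-quartile scaling that of SMG6 lay just above it, at 0.15 (0.00098 to 0.30).

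Because counting error was small for the abundant members, differences between members were also given. For the 36 pairs of members, the difference of the 2 log2 ratios was given a 95% interval from the 4 counts by the normal approximation, without adjustment for the number of pairs. The share of such intervals among pairs of other genes was not computed, so nothing is read from their number. UPF1, which has the lowest ratio of the 9 and so lies below every other member by that choice, is given as a description: its differences ran from -0.16 against SMG1 to -0.52 against SMG9. Between SMG1 and SMG9 the difference was -0.36 (-0.48 to -0.24) and between SMG1 and SMG8 it was -0.27 (-0.46 to -0.082). SMG5 and SMG6 differed by -0.20 (-0.37 to -0.037), while for UPF3A and UPF3B the interval of the difference, 0.016, ran from -0.26 to 0.29. These intervals also cover counting error only.

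To compare abundance between the genes, CPM was divided by the length in kb of the canonical transcript. SMG5 had the highest level of the 9, with 33.1 CPM per kb in si-NC and 31.3 in si-SRSF2. SMG1 followed with 23.4 and 21.4, and UPF1 with 19.7 and 16.2. UPF2 had 15.6 and 16.04 CPM per kb, UPF3A 14.1 and 14.7, and SMG9 12.7 and 14.96. The lowest levels were those of UPF3B (8.37 and 8.65), SMG8 (8.37 and 9.24) and SMG6 (7.10 and 7.74). The median coding gene tested had 12.01 CPM per kb in si-NC and 11.6 in si-SRSF2, so the members spread around the middle of the transcriptome, from above 34.1% of coding genes for SMG6 to above 80.7% for SMG5 in si-NC.

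**Figure D2:**
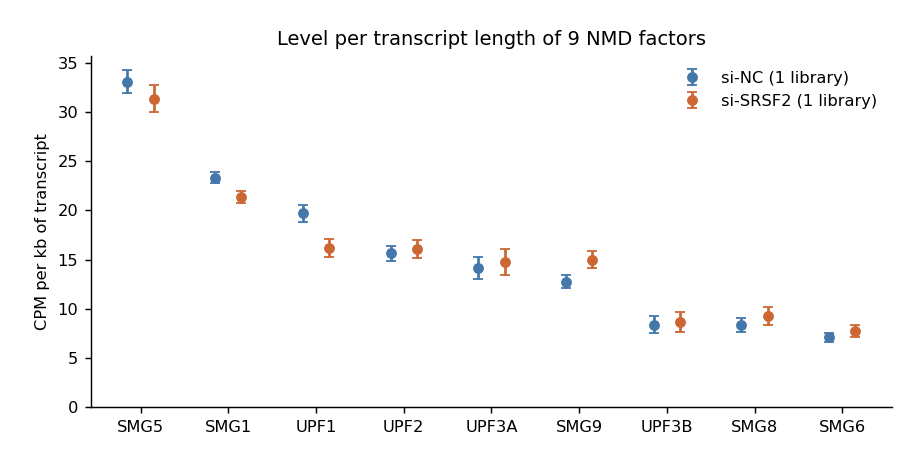
Level of each NMD factor in CPM per kb of canonical transcript, 1 point per library with a 95% Poisson interval (counting error only), ordered by the si-NC level. SMG5 is highest at 33.1 and SMG6 lowest at 7.10 in si-NC, and UPF1 is at 19.7 in si-NC and 16.2 in si-SRSF2, where UPF2 is at 16.04.

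Several neighbours in this order had overlapping intervals. Overlap alone does not show equal levels, and no interval was computed for the difference between levels. In si-NC the 95% Poisson intervals of UPF2 (14.9 to 16.4) and UPF3A (13.1 to 15.2) overlapped, as did those of UPF3A and SMG9 and those of UPF3B and SMG8. The interval of SMG6 (6.63 to 7.59) overlapped that of UPF3B (7.56 to 9.25) but not that of SMG8 (7.67 to 9.10). In si-SRSF2 the levels of UPF1, UPF2, SMG9 and UPF3A lay between 14.7 and 16.2 with overlapping intervals. The length used for a gene shifts its place. With the union of all annotated exons as the length, SMG5 and SMG6 stayed highest and lowest in both libraries, and UPF3A went from rank 5 to rank 8 in si-NC.

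The balance between partners followed from these values. Per kb, UPF1 mRNA was 1.26 times the level of UPF2 mRNA in si-NC and 1.01 times in si-SRSF2. SMG1 was 1.83 times SMG9 in si-NC and 1.43 times in si-SRSF2, and 2.79 and 2.31 times SMG8. SMG5 was 4.66 times SMG6 in si-NC and 4.05 times in si-SRSF2. The ratio of UPF3A to UPF3B was 1.69 and 1.70, and that of UPF2 to UPF3B 1.87 and 1.86. Which partner is the more abundant depends on the length for some pairs. With the union of exons, UPF1 was 0.855 and 0.683 times UPF2, and UPF3A 0.750 and 0.758 times UPF3B, so both directions turned. SMG5 was then 7.09 and 6.16 times SMG6, SMG1 stayed above SMG8 and SMG9, and UPF2 stayed above UPF3B.

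Reads of 3 members may be shared with other genes. SMG1 has transcribed pseudogene copies, SMG1P1 to SMG1P7, that arose from part of the gene. A share of 6.72% of the 150-base stretches of the SMG1 transcript, the length of 1 read, occurred unchanged in a transcript of another gene, and 22.4% of its 31-base stretches did. A stretch of SMG1 exon 13 is shown beside the same stretch of SMG1P1, the most abundant copy, because it shows how few bases tell the reads apart. Both are GRCh38 reference sequence written as in the transcript, from chr16:18876244-18876393 (minus strand) and chr16:22474949-22475098 (plus strand). Capitals mark the 5 positions of 150 at which they differ.
SMG1: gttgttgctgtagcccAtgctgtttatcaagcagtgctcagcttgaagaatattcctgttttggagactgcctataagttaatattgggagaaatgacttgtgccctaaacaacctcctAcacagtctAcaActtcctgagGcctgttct
SMG1P1: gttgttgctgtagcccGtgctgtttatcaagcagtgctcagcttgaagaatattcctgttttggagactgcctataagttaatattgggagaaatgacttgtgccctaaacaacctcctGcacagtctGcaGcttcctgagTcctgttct
Of 2422 windows of 150 coding bases that lie in 1 exon of SMG1, 473 aligned to SMG1P1. Of those aligned, 19 had no difference and the median window had 2. A window was aligned only through an exact match of 31 bases, so more diverged windows are left out of this median.

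Counts assigned to the copies went the same way as SMG1 in total. The 7 copies summed to 1942 counts in si-NC against 1231 in si-SRSF2, or 26.0% and 24.7% of the SMG1 counts, with a log2 ratio of -0.20 (interval -0.30 to -0.096). SMG1P1 held most of them, 1539 and 976 counts, with a log2 ratio of -0.20 (-0.32 to -0.083). The smaller copies differed among themselves. SMG1P2 had 136 and 53 counts (-0.82, interval -1.39 to -0.43) and SMG1P3 had 107 and 110 (0.46, 0.10 to 0.90). The lowest ratio, -1.19 (-5.94 to -0.74), was that of SMG1P7, which rests on 19 counts and 2. With the copies added, SMG1 had a log2 ratio of -0.14 (-0.19 to -0.096), the same direction as without them. How reads that match several places equally well were counted is not given in the sources used here.

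**Figure D3:**
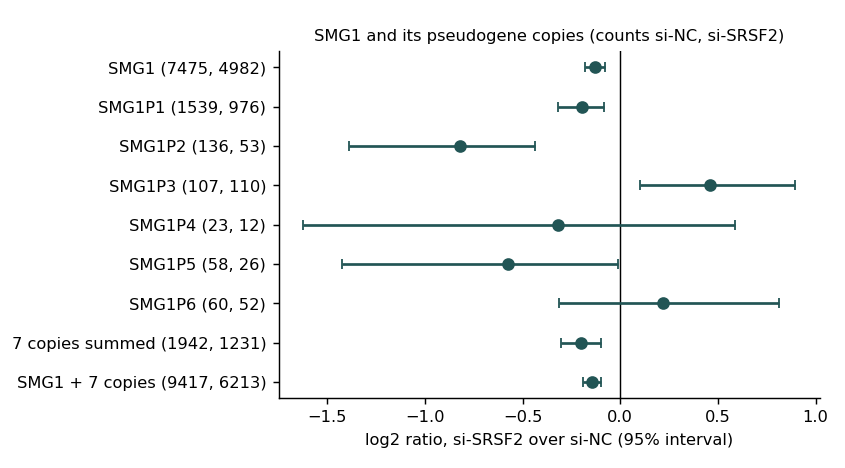
Log2 ratio with its 95% Clopper-Pearson interval (counting error only) for SMG1, for 6 of its pseudogene copies, for all 7 copies summed and for SMG1 with all 7 added, with counts in si-NC and si-SRSF2 beside each name. SMG1, SMG1P1 and both sums lie between -0.20 and -0.13, while the other copies drawn scatter from -0.82 to 0.46. SMG1P7 (19 and 2 counts) is not drawn.

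For UPF3A, 14.99% of the 150-base stretches occurred in a transcript of another gene, chiefly of the pseudogenes UPF3AP2 and UPF3AP1. The 3 UPF3AP pseudogenes had 4 counts in si-NC against 6 in si-SRSF2 in all, and adding them gave UPF3A a log2 ratio of 0.069. For SMG8 the share was 9.02%, from a gene model on the same strand that covers 13.1% of its canonical transcript. SMG6 shares no sequence with another transcript, but HIC1, a tumour suppressor gene on the opposite strand, covers 29.8% of its canonical exon bases. HIC1 had 58 counts in si-NC against 84 in si-SRSF2, against 845 and 671 for SMG6. The library kit was strand-specific, but the strand setting of the counting is not given in the sources used here, so the value of SMG6 carries this uncertainty. UPF1, UPF2, UPF3B, SMG5 and SMG9 had no 150-base stretch in common with another gene.

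The siRNAs were searched for in the members' transcripts, since an siRNA can also lower mRNAs that match its seed, bases 2 to 8 of either strand. Both duplexes are shown as 19 bases without the overhang, with the seed in capitals. The strand named first is the one listed by the study and the other is its reverse complement.
si-SRSF2 listed: uCCAAAUCcaggucgcgau
si-SRSF2 reverse complement: aUCGCGACcuggauuugga
siNC listed: uUCUUCGAacgugucacgu
siNC reverse complement: aCGUGACAcguucgaagaa
The full 19-base target of either siRNA was in 0 of the 9 canonical transcripts. The site of the si-SRSF2 reverse complement strand, GTCGCGA, which is the strand that pairs with SRSF2 mRNA, occurred once in the 3′ UTR of SMG1 and in no other member. Of 10893 coding genes tested, 0.257% had this site in the 3′ UTR. The site of the listed strand, GATTTGG, was in the 3′ UTR of UPF1 once, of SMG1 once and of SMG9 at 2 places, and in the coding sequence of UPF2 once. It was in the 3′ UTR of 14.6% of coding genes. Of the 3 members with a 3′ UTR site, UPF1 and SMG1 had a lower level in si-SRSF2 and SMG9 a higher one. Of the siNC sites, TCGAAGA was in the coding sequence of UPF3A and of UPF3B, as in the transcripts of 9.50% of coding genes, and TGTCACG was in 0 members, against 6.98% of coding genes. Sites were searched in the sequence of the transcript only, not in its complement. The part of these sites in the differences was not tested.

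Sequence features linked with NMD were compared with the members' ratios. The canonical 3′ UTR was longest in SMG1 (4709 bases) and SMG9 (3613 bases), followed by UPF1 with 1713, SMG6 with 1649, SMG5 with 1363 and UPF2 with 1276. UPF3A had 900 bases, UPF3B 856 and SMG8 228. The median over coding genes tested was 1361 bases, so the members were not all long by this measure. SMG1 and SMG9, with 3′ UTRs longer than 90.3% and 83.3% of coding genes, had log2 ratios of -0.13 and 0.23. Among the coding genes tested, the 2724 with the shortest 3′ UTRs (up to 537 bases) had a median log2 ratio of -0.017. The 2723 with the longest (2812 bases and more) had a median of -0.055.

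**Figure D4:**
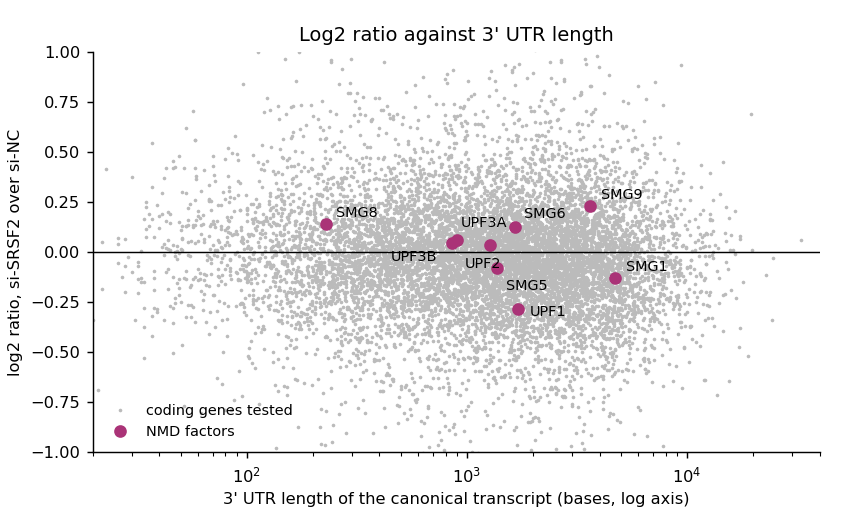
Log2 ratio of si-SRSF2 over si-NC against the 3′ UTR length of the canonical transcript (log axis), with coding genes tested in grey and the 9 NMD factors named; of 10885 genes with a 3′ UTR, 112 lie outside the axes. SMG1 and SMG9 have the longest 3′ UTRs of the members and lie on opposite sides of 0.

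Other features varied as much. An upstream ATG in the 5′ UTR was present in 4 members, SMG1, SMG5, SMG9 and UPF2, and in 40.6% of all coding genes tested. At least 1 annotated NMD isoform was listed for UPF1, SMG1, SMG8 and SMG9, and for 49.6% of coding genes. The median log2 ratio was -0.041 for genes with an upstream ATG and -0.032 for those without, and it was -0.034 for genes with an annotated NMD isoform and -0.036 for those without. UPF1 was the one member whose stop codon lies before the last exon junction, 3 bases upstream of it, an arrangement found in 3.47% of coding genes. This distance is below the 50 bases or so at which a junction is known to trigger NMD. UPF1 also had the highest GC content of the members, 60.4% against a median of 47.9%, and SMG5, SMG6 and SMG9 had 55.2% to 57.6%.

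The rest of the NMD machinery was read in the same way, from lists of 34 genes, all of them tested. Of these, 20 were higher and 14 lower, against 46.2% and 53.8% of all genes. At 1.2-fold, 7 were higher and 1 lower, against 14.9% and 17.9%. At 1.5-fold the counts were 0 and 0, against 4.18% and 3.52% of all genes. The interval lay above equality for 12 and below it for 9, against 21% and 26.7%. Their median log2 ratio was 0.021, and that of all genes tested -0.025. In the exon junction complex and its partners, 6 of 10 were higher, against 46.2% of all genes, with a median of 0.099. The paralogues MAGOH and MAGOHB, interchangeable core subunits, stood at the 2 ends of this list. MAGOH had 724 counts in si-NC against 735 in si-SRSF2, or 0.47 on the log2 scale (0.33 to 0.63). MAGOHB had 265 and 163 counts, or -0.23 on the log2 scale (-0.53 to 0.043). EIF4A3, the RNA helicase that anchors the complex and that MAGOH joins, had 1670 and 1042 counts and -0.22 (-0.34 to -0.11).

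Among 12 other NMD cofactors, 10 were higher, against 46.2% of all genes, with a median of 0.083 and a range from -0.12 for TTI1, part of a chaperone complex for SMG1 and related kinases, to 0.32 for DHX34, a helicase that assists UPF1 phosphorylation. DHX34 had 688 counts in si-NC against 626 in si-SRSF2. RUVBL1 and RUVBL2, ATPases that also act on SMG1-type kinases, were named after their values were seen and had 0.29 each. In the list for translation termination and mRNP proteins, 3 of 6 were higher, against the same 46.2%, with values from -0.11 for the release factor gene ETF1 to 0.091 for GSPT2, which encodes a partner of that factor.

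Of the decapping and decay genes 5 of 6 were lower, against 53.8% of all genes, with a median of -0.15 and 4 intervals below equality, against 26.7% of all genes. EDC4, a scaffold for decapping, had 1630 counts in si-NC against 916 in si-SRSF2, or -0.37 on the log2 scale (-0.49 to -0.26). DCP1B, which encodes a decapping activator, was the exception with 252 and 255 counts and 0.46 (0.22 to 0.73). Kinases related to SMG1 had a median of -0.15 over 5 genes, from -0.36 (-0.47 to -0.25) for MTOR to 0.070 (-0.0030 to 0.14) for ATM, so SMG1 at -0.13 lay within their range.

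Transcripts known as NMD substrates for other reasons were set beside the factors. Of 28 such genes, 15 were higher and 13 lower, against 46.2% and 53.8% of all genes, with a median log2 ratio of 0.028. At 1.2-fold 4 were higher and 3 lower, against 14.9% and 17.9% of all genes. The interval lay above equality for 9 and below it for 7, against 21% and 26.7%. The list of stress genes and genes with upstream reading frames ranged from -0.53 for GADD45B to 0.23 for DDIT3. GADD45B had 787 counts in si-NC against 395 in si-SRSF2, and DDIT3 had 509 and 436. Among small nucleolar RNA host genes 6 of 8 were higher, against 46.2% of all genes, from -0.092 for SNHG1 to 0.51 for SNHG8, which had 435 and 455 counts. Genes with poison exons ranged from -0.28 for SRSF7 to 0.61 for HNRNPDL, a gene that represses itself through splicing in its 3′ UTR. HNRNPDL had 5750 counts in si-NC against 6379 in si-SRSF2. It was the only gene of the 28 past 1.5-fold, against 4.18% of all genes upwards and 3.52% downwards. Several of these genes also respond to stress or to SR proteins directly, so their levels are not a readout of NMD alone. Counts were per gene, so an isoform degraded by NMD, such as one with a poison exon, is not told apart from the gene's other isoforms.

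**Figure D5:**
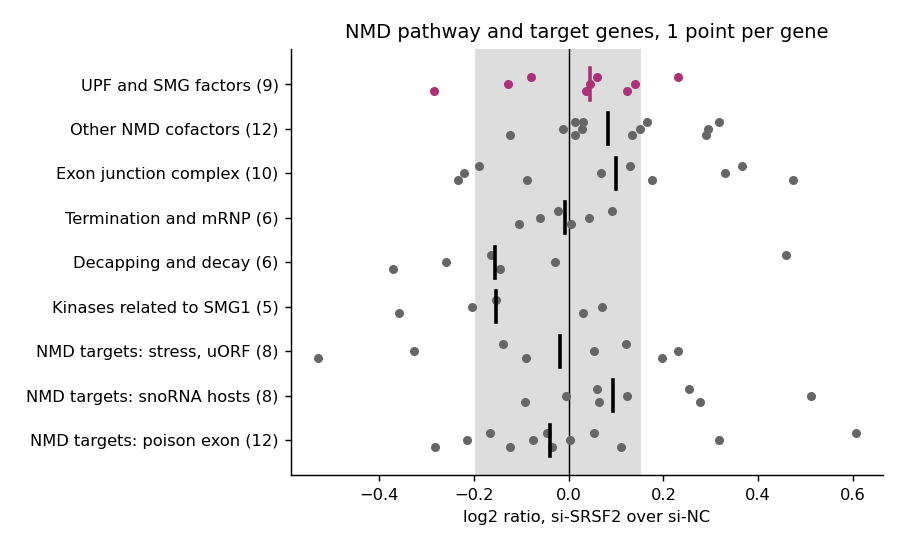
Log2 ratio of si-SRSF2 over si-NC for each gene of the NMD factors and of 8 lists of pathway, kinase and target genes (number of genes tested in brackets), with the list median as a bar and the 25th to 75th percentile of all genes tested in grey. The median of the UPF and SMG factors is 0.045, those of the other lists lie between -0.15 and 0.099, and HNRNPDL at 0.61 is the point farthest to the right.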

How the data were processed

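Poly(A)-selected, strand-specific libraries of RKO cells were sequenced as 150-base read pairs, 1 per group. Clean reads were aligned to GRCh38 with HISAT2 2.0.4 (submitters' processing notes) and counted with HTSeq by the authors, who deposited raw counts per gene symbol without normalization. Groups were taken from the sample labels.

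Counts were scaled with edgeR 4.0.16 (TMM, R 4.3.3) to CPM, with 0.5 CPM added before the log2 ratio, and 12620 genes averaging 1 CPM or more were used. No test was possible with 1 library per group. Clopper-Pearson intervals (95%, SciPy 1.17.1) were given for ratios and Poisson intervals for levels. Both cover counting error only, and reads carry no molecular identifiers. The limit that a count of 0 allows, 3 counts, was 0.151 CPM in si-NC and 0.207 in si-SRSF2. The calculations were tested on simulated data.

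Coordinates, canonical transcripts and sequences came from GENCODE release 44 on GRCh38, a newer release than the Ensembl annotation named in the study's methods. A canonical transcript was found for 93.4% of genes tested, with symbols matched directly or through RefSeq. The siRNA sequences came from the study's supplement. The rule for the members uses no measured value, but the members and gene lists were chosen with earlier results of these data known. Genes named were all members, SRSF2, and some of the copies and overlapping genes. From each other list they were the highest, the lowest and any past 1.5-fold. Others were named after their values were seen (MAGOHB's partner EIF4A3, RUVBL1 and RUVBL2, and markers).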

Additional observations from a re-analysis of the deposited data

How the results depend on the processing

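No paired analysis was possible because si-NC and si-SRSF2 were 1 library each, and for the same reason no replicate could be left out. The 9 alternatives for the ratios were scaling by upper-quartile factors, by total counts, by size factors from DESeq2 1.42.0 or without mitochondrial and the 20 most abundant genes, a pseudocount of 0.1 or of 2 CPM, a filter at 5 CPM or none, and the linear fit on length, GC content and expression. The median log2 ratio of the 9 members stayed between 0.042 and 0.070, and no member changed sign under any of them. With upper-quartile factors, 0 members were at least 1.2-fold lower (15.9% of all genes) and 2, SMG9 and SMG6, had an interval wholly above equality (23.9%). The fit gave 0 members at least 1.2-fold lower (15.8% of all genes) and 1 at least 1.2-fold higher (15.2%), and moved SMG1 from -0.13 to -0.025, the only member value outside its interval. UPF1 ranged from -0.28 to -0.23 and SMG9 from 0.23 to 0.29. The length of the union of exons moved 16 of the 18 levels per kb outside their Poisson intervals, since that length is greater for all members. Depth limits UPF3B and SMG8 most, with 294 and 432 counts in si-SRSF2.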
